A study of Mus musculus with 6 samples.

Results

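Glul, Oat, Axin2, Lgr5, Tbx3, Rnf43, Znrf3, Nkd1, Notum and Sp5 are target genes of Wnt and beta-catenin signalling that in liver are known from the hepatocytes around the central vein. They were taken from the files by symbol, and all 10 were among the 22609 genes listed in the count files. RNA was sequenced from adult liver of C57BL/6 mice, 3 wild type libraries and 3 libraries from mice lacking Igfbp7 (Igfbp-7-/-), a knockout made on that background with Cre-loxP recombination. Igfbp7 encodes a protein that is secreted and binds insulin-like growth factors, and the series concerns it in hepatocellular carcinoma, although the tissue here is liver without a stated tumour. The labels name no Cre driver, sex, age, feeding state or hour of collection, and nothing says that the libraries of a genotype came from separate animals, so the p-values measure only how these libraries spread, which may be technical.

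In liver, Wnt ligands and the R-spondin Rspo3 come largely from endothelial cells of the central vein and the adjoining sinusoids. Ligand binding to Frizzled receptors and the co-receptors Lrp5 and Lrp6 protects beta-catenin from a destruction complex that is built on Axin proteins, Apc and Gsk3. Beta-catenin then acts with TCF/LEF factors at target genes, which include pericentral enzymes and, as negative feedback, several brakes on the pathway itself.

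The libraries held 16712568 to 22419411 gene counts, and levels are given as CPM, the share of a library's counts after TMM scaling. Igfbp7 stood at 76.4, 79.7 and 60.9 CPM in wild type replicates 1 to 3 and at 0.237, 0.109 and 0.442 CPM in the libraries labelled knockout, which fits the labels. All 8 hepatocyte markers were present in each library, with a sum from 102128 to 122510 CPM over the wild type livers and from 108084 to 133479 CPM over the knockout livers. Wild type replicate 1 stood apart in genes of the circadian clock, where it held Arntl at 17.6 CPM, against a range elsewhere of 1.91 to 2.85 CPM, and Dbp at 10.2 CPM, against a range of 51.0 to 78.8 CPM.

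No gene of the group passed the test across all genes, but Notum, Tbx3 and Axin2 were higher in each knockout library than in every wild type library. The fitted knockout level of Notum was 1.45 times the wild type level, that of Tbx3 1.78 times and that of Axin2 1.43 times. Glul, the defining enzyme of pericentral hepatocytes, stood at 1.07 times its wild type level, and the groups overlapped for it and the other 6 genes. By edgeR's quasi-likelihood test with Benjamini-Hochberg adjustment over 12522 genes, 0 of the 10 passed an adjusted p of 0.05, and 0.216% of all genes tested did. limma-voom called 0 of them. On simulated counts the edgeR test called 32.3% of 65 genes changed 1.5-fold, so a change of that size was often missed there. Those genes were drawn at random from all genes tested, beside others changed 2-fold and 4-fold, so the share need not hold for these 10. DESeq2 called Notum and Tbx3, both higher, and it called 1.91% of the genes with an adjusted p as higher. Before adjustment 3 of the 10 had a p under 0.05 and were higher, against 8.10% of all genes, and 0 had such a p and were lower, against 7.35%. The 3 knockout values lay above the 3 wild type values in 3 of the 10, against 10.7% of all genes, and below them in 0 of the 10, against 10.1%. The median log2 fold change of the 10 was 0.10, beside 0.001 over all genes tested, and it was 0.047 without knockout replicate 2 and 0.16 without knockout replicate 1. All 10 passed the filter on low counts, so none is missing from these figures.

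**Figure D1:**
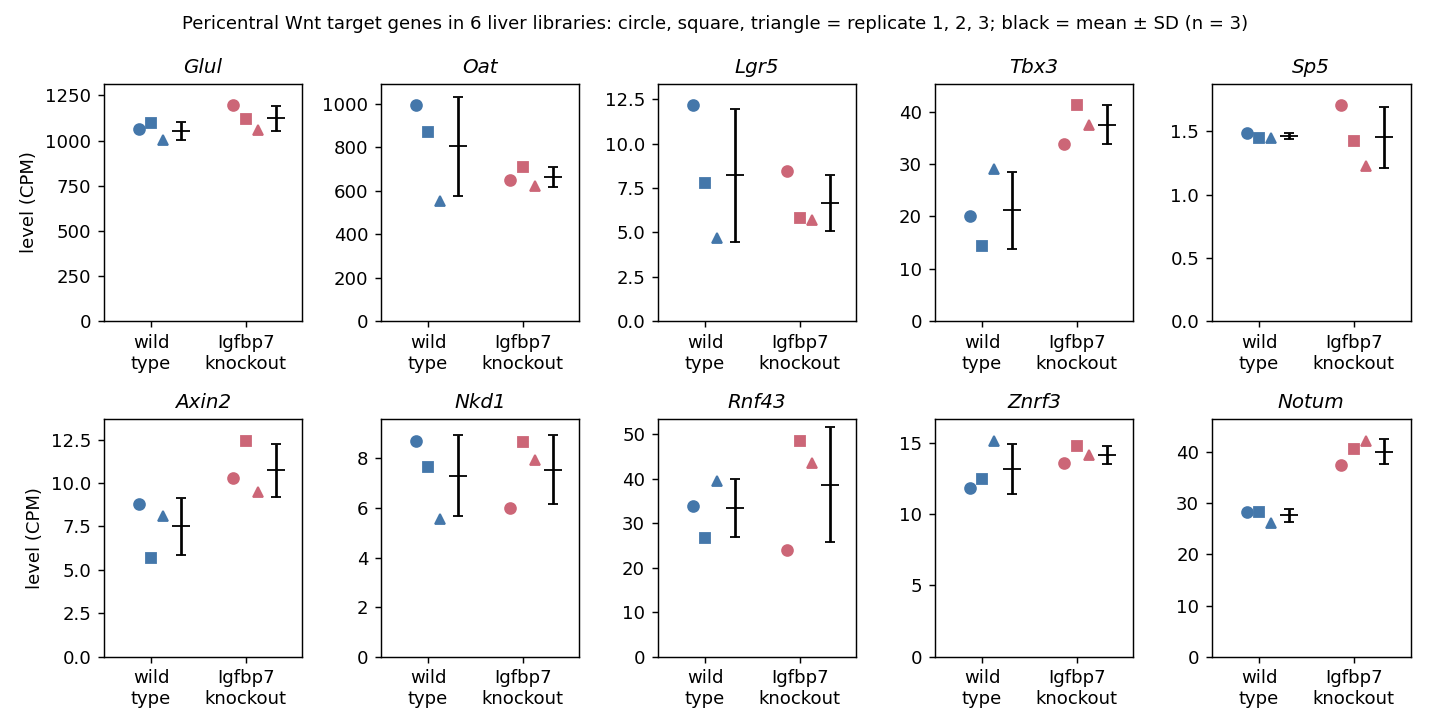
Level in CPM (linear axis from 0) of each gene in the 3 wild type (blue) and 3 Igfbp7 knockout (red) liver libraries, with a circle, square and triangle for replicates 1, 2 and 3 and the mean ± SD in black. The knockout points of Tbx3, Axin2 and Notum lie above all wild type points, while the groups overlap in the other 7 panels.

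Glul encodes glutamine synthetase, which joins ammonia to glutamate in the last ring of hepatocytes before the central vein. It stood at 1063, 1099 and 1002 CPM in wild type replicates 1 to 3 and at 1196, 1119 and 1059 CPM in the 3 knockout replicates. The libraries differed little: the highest wild type value was 1.097 times the lowest, and the highest knockout value 1.13 times the lowest. Wild type livers averaged 1055 ± 49.0 CPM and knockout livers 1125 ± 68.7 CPM (SD, n = 3 each). The log2 fold change was 0.09 ± 0.11 (SE, edgeR adjusted p = 0.740). The 95% interval of the fold, 0.898 to 1.27, covers this gene alone and holds no correction for the number of genes.

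Oat encodes ornithine aminotransferase, a mitochondrial enzyme that links ornithine to glutamate and is made in the same pericentral cells. Its wild type replicates held 993, 869 and 550.5 CPM and its knockout replicates 651, 711 and 621 CPM. The knockout values lay between those of wild type replicates 2 and 3, and the highest wild type value was 1.803 times the lowest. The log2 fold change was -0.28 ± 0.20 (SE, edgeR adjusted p = 0.547). It was -0.10 without wild type replicate 1, the library set apart by its clock genes, and -0.49 without wild type replicate 3.

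Lgr5 encodes a receptor for R-spondins that strengthens Wnt signalling. Wild type replicates 1 to 3 held 12.2, 7.81 and 4.68 CPM and knockout replicates 1 to 3 held 8.48, 5.84 and 5.70 CPM. The wild type libraries thus held both the highest and the lowest value, 2.60-fold apart, the widest relative range of the 10 genes within the wild type group. The log2 fold change was -0.30 ± 0.32 (SE, edgeR adjusted p = 0.707), and it was 0.09 without wild type replicate 1 and -0.58 without wild type replicate 3. The 95% interval of the fold ran from 0.491 to 1.34.

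Tbx3 encodes a T-box transcriptional repressor. It stood at 19.99, 14.4 and 29.0 CPM in wild type replicates 1 to 3 and at 33.9, 41.2 and 37.4 CPM in the 3 knockout replicates. Every knockout library exceeded every wild type library, although wild type replicate 3, at 29.0 CPM, came near knockout replicate 1 at 33.9 CPM. Wild type livers averaged 21.1 ± 7.40 CPM and knockout livers 37.5 ± 3.68 CPM (SD, n = 3 each). On the log2 scale the difference was 0.83 ± 0.22 (SE), the largest of the 10. Its p was 0.00508 before and 0.142 after adjustment by edgeR. The difference ran from 0.61 without wild type replicate 2 to 1.13 without wild type replicate 3, and edgeR did not call it with any 1 library left out. DESeq2 called it (adjusted p = 0.0108, with 1.91% of genes called as higher).

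Sp5 encodes a zinc finger factor of the Sp family and was the scarcest of the 10, at 25 to 36 counts per library. Wild type replicates 1 to 3 held 1.49, 1.45 and 1.44 CPM and knockout replicates 1 to 3 held 1.70, 1.42 and 1.23 CPM. The knockout libraries lay on both sides of the narrow wild type range. At so few counts that range is not a reliable measure of how Sp5 varies. The log2 fold change was -0.01 ± 0.23 (SE, edgeR adjusted p = 0.992), with an interval of the fold from 0.688 to 1.44.

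The stretches before the starts of these genes were read for the letters of TCF/LEF sites, since these factors are known to bind sequences built on the core CTTTG. RefSeq promoter windows were at hand for 6 of the 10 genes (Glul, Oat, Axin2, Rnf43, Nkd1 and Sp5), and the 250 bases before each start were searched on both strands for CTTTG and for the longer CTTTGAT and CTTTGAA, which contain it. Sp5 held 4 matches to CTTTG, 3 as written and 1 as its reverse complement CAAAG, and 1 of them was part of CTTTGAT, 104 to 98 bases before the start. The other 5 genes held 0 matches to any of these letters in their windows. Over 32851 promoter windows of the same length, CTTTG was found in 48.6%, CTTTGAT in 3.21% and CTTTGAA in 4.46%. Sp5 is printed because it held the matches, and Axin2 because it is the gene with a window among the 3 that were higher in each knockout library. Both are given 5′ to 3′ on the gene's own strand, which is the plus strand, in build GRCm38.p6, and capitals mark CTTTG or CAAAG. Sp5 is at chr2:70474673-70474922 and Axin2 at chr11:108920099-108920348.
Sp5: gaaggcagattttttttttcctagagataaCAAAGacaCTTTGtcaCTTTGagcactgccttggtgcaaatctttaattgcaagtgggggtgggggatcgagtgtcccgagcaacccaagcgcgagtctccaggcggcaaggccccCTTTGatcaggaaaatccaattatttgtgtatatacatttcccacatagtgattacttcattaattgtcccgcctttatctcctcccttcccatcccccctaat
Axin2: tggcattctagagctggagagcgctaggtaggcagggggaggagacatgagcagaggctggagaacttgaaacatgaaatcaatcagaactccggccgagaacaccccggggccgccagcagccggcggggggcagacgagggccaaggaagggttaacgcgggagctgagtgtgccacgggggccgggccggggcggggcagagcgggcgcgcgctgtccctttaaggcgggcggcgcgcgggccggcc
A match is a description of the letters only, and no match says nothing of binding elsewhere.

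The other 5 genes act as brakes on the pathway. Axin2 encodes a scaffold of the beta-catenin destruction complex and is widely used as a readout of Wnt signalling. It stood at 8.77, 5.66 and 8.08 CPM in wild type replicates 1 to 3 and at 10.3, 12.4 and 9.48 CPM in the 3 knockout replicates. The groups did not overlap, but the gap between wild type replicate 1 and knockout replicate 3 was small beside the spread within either group. Wild type livers averaged 7.504 ± 1.63 CPM and knockout livers 10.7 ± 1.54 CPM (SD, n = 3 each). On the log2 scale the difference was 0.52 ± 0.19 (SE), and its p was 0.0232 before and 0.242 after adjustment by edgeR. DESeq2 did not call it (adjusted p = 0.181). The log2 fold change was 0.34 without wild type replicate 2 and 0.65 without wild type replicate 1.

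Notum encodes a secreted enzyme that removes the lipid group from Wnt proteins and so inactivates them. Its wild type replicates held 28.4, 28.4 and 26.1 CPM and its knockout replicates 37.4, 40.6 and 42.3 CPM. The spread was narrow in both genotypes, and the lowest knockout library lay well above the highest wild type library. Wild type livers averaged 27.6 ± 1.33 CPM and knockout livers 40.1 ± 2.47 CPM (SD, n = 3 each), and the log2 fold change was 0.54 ± 0.09 (SE). Its unadjusted p of 0.000362 was smaller than that of all but 0.519% of the genes tested, and its edgeR adjusted p of 0.0687 missed the threshold. DESeq2 called it (adjusted p = 0.00138), as did edgeR without a filter (0.0453) and with robust estimation (0.0496), and the latter settings called 0.418% and 0.303% of their genes as higher. With each library left out in turn the log2 fold change ran from 0.50 to 0.58, and the edgeR adjusted p from 0.0908 to 0.249.

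Nkd1 encodes a cytoplasmic inhibitor that binds Dishevelled proteins. It stood at 8.72, 7.67 and 5.54 CPM in wild type replicates 1 to 3 and at 6.01, 8.68 and 7.95 CPM in the 3 knockout replicates. The ranges were almost the same, and the log2 fold change was 0.04 ± 0.21 (SE, edgeR adjusted p = 0.948), with an interval of the fold from 0.743 to 1.42. It was 0.18 without wild type replicate 1 and -0.12 without wild type replicate 3. Rnf43 and Znrf3 encode related membrane ubiquitin ligases that remove Frizzled receptors from the cell surface, and R-spondins act by blocking them. For Rnf43, wild type replicates 1 to 3 held 33.9, 26.6 and 39.6 CPM and the knockout ones 24.1, 48.6 and 43.5 CPM. Knockout replicate 1 was the lowest of the 6 libraries for Rnf43 and the other 2 knockout libraries were the highest. Its log2 fold change was 0.21 ± 0.25 (SE, edgeR adjusted p = 0.739), and it was 0.46 without knockout replicate 1 and 0.02 without knockout replicate 2. For Znrf3, they held 11.9, 12.5 and 15.2 CPM and 13.6, 14.8 and 14.1 CPM. The knockout values lay inside the wild type range, with a log2 fold change of 0.11 ± 0.13 (SE, edgeR adjusted p = 0.740) and an interval of the fold from 0.884 to 1.31. It was 0.036 without wild type replicate 1 and 0.22 without wild type replicate 3.

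**Figure D2:**
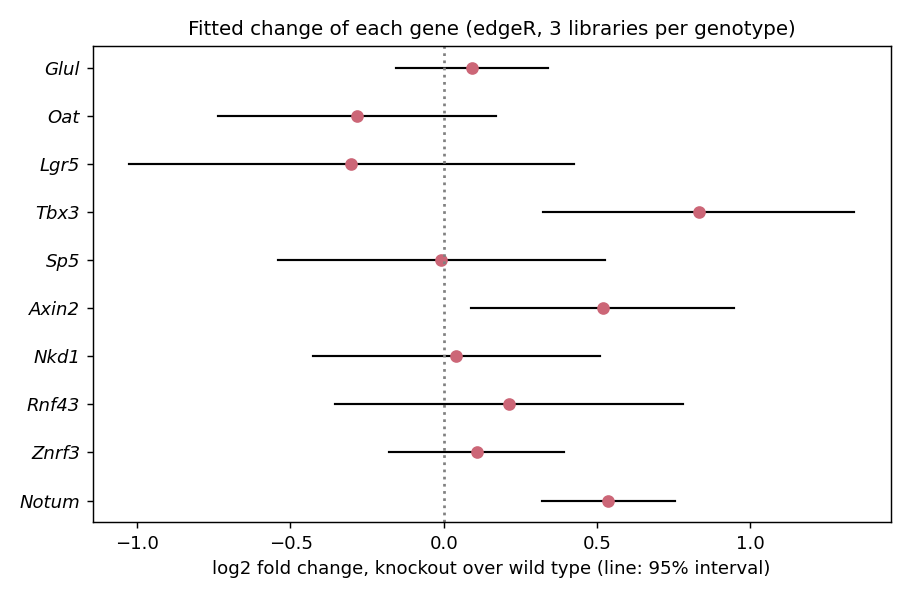
Log2 fold change of each gene, knockout over wild type, from the edgeR fit (point) with its 95% interval for that gene alone (line). The intervals of Tbx3 (0.32 to 1.34), Axin2 (0.09 to 0.95) and Notum (0.32 to 0.75) lie above 0, and those of the other 7 genes include 0.

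In the annotation GENCODE M21, exons of Notum share 708 bases with the antisense gene Notumos and 210 with Myadml2os, exons of Axin2 share 209 bases with the antisense gene Gm11670, and exons of Tbx3 share 115 with the antisense gene Tbx3os1. Glul shares 116 exon bases with Teddm2 on the opposite strand and 93 with the miRNA gene Mir8114 on its own strand. Under these names the 6 partners have no row in the count files, where some genes carry older names. No source used here gives the strand setting of the counting, so reads of the partners may be counted for these 4 genes. Their part in the values was not tested.

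Levels of different genes were compared per kilobase of exon, with exon lengths from GENCODE M21, which may differ from the gene models the authors counted on. Oat and Glul were far above the rest, at 341 ± 96.7 and 317 ± 14.7 CPM per kilobase in wild type libraries (SD, n = 3 each). Notum followed at 11.5 ± 0.551, then Rnf43 at 5.09 ± 0.993 and Tbx3 at 3.19 ± 1.12 CPM per kilobase. Znrf3, Nkd1 and Axin2 lay between 1.36 and 1.67 on average, and Lgr5 and Sp5 were lowest at 0.801 ± 0.367 and 0.695 ± 0.0117 CPM per kilobase. In this order the wild type libraries of Glul and Notum, of Notum and Rnf43, and of Tbx3 and Znrf3 did not overlap, while those of all other neighbours did. In the knockout libraries Glul, at 338 ± 20.7, stood above Oat at 280.0 ± 19.4 CPM per kilobase without overlap. Axin2 was above Znrf3 and Nkd1 there on average, with overlap between Axin2 and Znrf3 and between Znrf3 and Nkd1. Both enzymes made up nearly all of the summed signal of the 10 genes, which ran from 1682 to 2181 CPM over the wild type livers and from 1841 to 2003 CPM over the knockout livers.

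**Figure D3:**
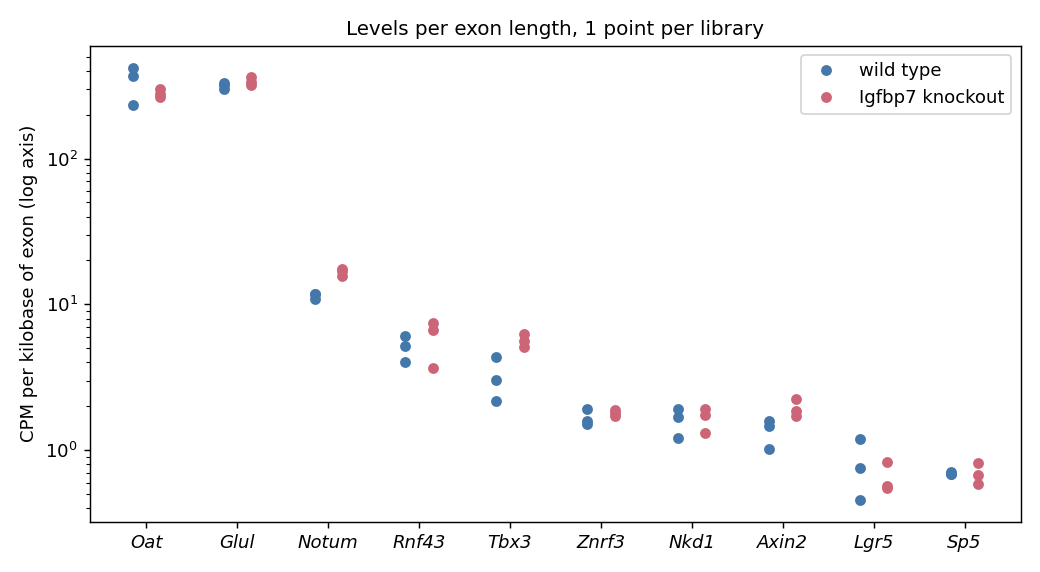
Level per kilobase of exon (CPM per kilobase, log axis) of each gene in each wild type (blue) and knockout (red) library, ordered by the wild type mean. The wild type mean of Glul lies 27.7-fold above that of Notum, and Lgr5 and Sp5 are lowest.

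The 10 genes did not share 1 profile over the libraries. Likeness was measured as the root mean square difference between profiles of log2 CPM centred per gene over the 6 libraries, and the 12521 other tested genes were ranked by it for each gene. Tbx3 had Axin2 at rank 116 and Notum at rank 528. Axin2 had Notum at rank 525 and Tbx3 at rank 1112. From the side of Notum, Axin2 was at rank 2328 and Tbx3 at rank 8332. Lgr5 had Oat at rank 63 and Oat had Lgr5 at rank 1631. Oat had Nkd1 at rank 576 and Nkd1 had Oat at rank 1172, while Lgr5 was at rank 10139 from the side of Nkd1 and Nkd1 at rank 2647 from that of Lgr5. Oat, Lgr5 and Nkd1 are the 3 genes whose highest value was in wild type replicate 1 and whose lowest was in wild type replicate 3. Nkd1 was nearly as high in knockout replicate 2 (8.68 against 8.72 CPM). The closest profiles to Notum were those of Eno3, Zfp167 and Map4k2, at differences of 0.05, 0.06 and 0.07. Those closest to Tbx3 were Fam110c, Gm16119 and Col27a1 (0.08, 0.12 and 0.14), and those closest to Axin2 were Lmbr1l, Plekhg5 and Ccdc141 (0.09, 0.10 and 0.11). For Glul, whose log2 CPM varied with an SD of only 0.09 over the libraries, they were Ubxn6, Tnpo3 and Rheb, at 0.02 each. The closest to Oat was Slc5a1 (0.08), to Lgr5 Fitm1 (0.11), to Rnf43 Tomt (0.10), to Znrf3 Ehmt1 (0.02), to Nkd1 Rgs12 (0.08) and to Sp5 Serping1 (0.02). With 6 libraries and 2 groups these ranks are descriptions without a test. The measure also depends on the size of a gene's variation, with an SD of log2 CPM of 0.58 for Tbx3 and 0.30 for Notum. Genes that differ between the groups in the same direction and by a like amount tend to lie near each other by construction.

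**Figure D4:**
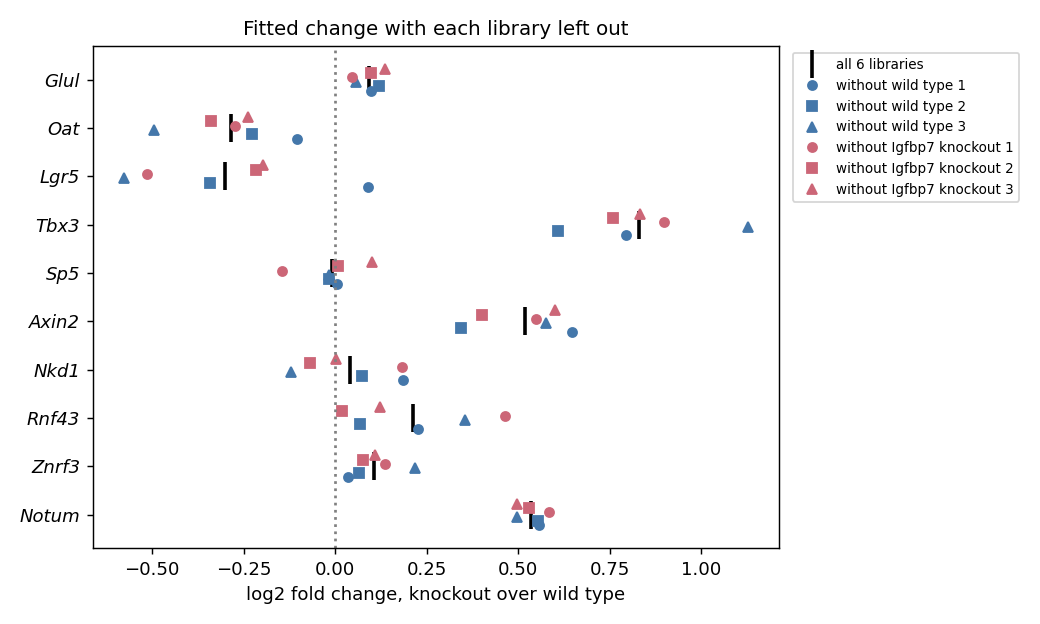
Log2 fold change of each gene, knockout over wild type, with all 6 libraries (black bar) and with each library left out (blue for wild type, red for knockout, circle, square and triangle for replicates 1, 2 and 3). Notum stays between 0.50 and 0.58 and Tbx3 between 0.61 and 1.13, while Lgr5 runs from -0.58 to 0.09 and Nkd1 from -0.12 to 0.18.

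Upstream of these targets, the ligands, receptors, transducers and secreted inhibitors of the pathway gave 0 calls by edgeR over all genes, and 1 by DESeq2, the receptor Fzd4. Of 78 listed genes 44 were tested, at a median log2 fold change of 0.04. Before adjustment 2 had an edgeR p under 0.05 and were higher and 4 lower, against 8.10% and 7.35% of all genes. DESeq2 called 1.91% of its genes as higher. Among ligands and their carriers 10 of 25 passed the filter. Wnt2, a ligand of the hepatic endothelium, averaged 5.95 ± 1.15 CPM in wild type livers and 5.49 ± 0.584 CPM (SD, n = 3) in knockout livers. Rspo3, which sustains pericentral Wnt signalling, stood at 7.09 ± 1.24 and 6.27 ± 0.914 CPM (SD, n = 3 each). Wnt9b, the other main endothelial ligand, had 2.92, 2.95 and 2.94 CPM in wild type replicates 1 to 3 and 2.27, 1.91 and 2.16 CPM in the knockout ones. All knockout values of Wnt9b lay below the wild type values, with a log2 fold change of -0.47 ± 0.18 (SE, edgeR adjusted p = 0.273), opposite in sign to those of Notum, Tbx3 and Axin2. Wnt2b was at 0.47 ± 0.22 (SE, edgeR adjusted p = 0.362), and Wls, which carries Wnt proteins to the surface, at -0.07 ± 0.16 (SE).

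Markers of endothelial cells, which make these ligands, all passed the filter, with 3 of 12 above and 9 below a log2 fold change of 0, at a median of -0.12. Their summed level ran from 515 to 546 CPM over the wild type livers and from 466 to 567 CPM over the knockout livers, and none was at 0. Cdh5, a junction protein of endothelial cells, stood at 45.3 ± 4.79 and 34.2 ± 3.21 CPM (SD, n = 3 each, edgeR adjusted p = 0.156), and Lyve1 at 16.2 ± 2.66 and 23.9 ± 11.9 CPM (SD, n = 3 each, edgeR adjusted p = 0.409). In bulk liver, fewer cells of a type and less RNA per cell cannot be told apart.

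Of 17 receptor genes 11 were tested, 8 above and 3 below 0, at a median log2 fold change of 0.13. Fzd4, a Frizzled receptor, had 19.8, 19.8 and 20.6 CPM in wild type replicates 1 to 3 and 23.3, 43.7 and 35.4 CPM in the knockout ones. The knockout libraries were all higher for Fzd4 but spread widely. Its log2 fold change was 0.76 ± 0.20 (SE, edgeR adjusted p = 0.138), and without knockout replicate 1 it was 0.98 and called by edgeR (adjusted p = 0.0423). Lgr4, a related receptor for R-spondins, stood at 77.4 ± 3.03 and 86.6 ± 4.62 CPM (SD, n = 3 each, edgeR adjusted p = 0.390). The co-receptors Lrp5 and Lrp6 were at -0.41 ± 0.21 and 0.14 ± 0.09 (SE).

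Of 22 transducer genes 19 were tested, 11 above and 8 below 0, at a median of 0.03. Ctnnb1, the gene for beta-catenin, averaged 338 ± 10.95 CPM in wild type livers, and in knockout livers 323 ± 12.2 CPM (SD, n = 3 each), with its log2 fold change at -0.06 ± 0.09 (SE). Axin1 and Gsk3b, parts of the destruction complex, were both at -0.09, with an SE of 0.13 and 0.09. Dvl2, a Dishevelled protein, was at 0.45 ± 0.17 (SE, edgeR adjusted p = 0.257). Tcf7l2, the main TCF factor of liver, was at -0.32 ± 0.13 (SE, edgeR adjusted p = 0.298), with all knockout values below the wild type values.

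Of 14 secreted inhibitors and their receptors 4 passed the filter, all below 0 (median -0.56), and the 10 that failed it are not described by this count. Frzb stood at 2.05 ± 0.277 and 0.980 ± 0.202 CPM (SD, n = 3 each, edgeR adjusted p = 0.120), and Sfrp1 at 1.70 ± 0.970 and 0.733 ± 0.0688 CPM (SD, n = 3 each, edgeR adjusted p = 0.225). Both bind and sequester Wnt proteins, and both held few counts, from 12 to 53 per library. Dkk3 was at -0.04 ± 0.20 and Kremen1 at -0.02 ± 0.12 (SE, edgeR adjusted p = 0.943 and 0.949). With Frzb at -1.07 and Sfrp1 at -1.20, the median of -0.56 lies far from each of the 4 values.

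Other genes of pericentral hepatocytes gave 1 call of 16 tested, against 0.216% of all genes, at a median log2 fold change of 0.12. Of these, 6 had an unadjusted edgeR p under 0.05 and were higher and 0 lower, against 8.10% and 7.35% of all genes. The list was chosen with earlier results of these data known, so these counts describe it and do not test it. Nr1i3, the xenobiotic receptor CAR, rose from 51.7 ± 3.83 to 129.9 ± 18.2 CPM (SD, n = 3 each, edgeR adjusted p = 0.0119), with all knockout libraries above all wild type libraries. It was not called without wild type replicate 2 (log2 fold change 1.28, edgeR adjusted p = 0.0671). Cyp2e1, a pericentral P450 enzyme, had 6147, 6495 and 6149.9 CPM in wild type replicates 1 to 3 and 8417, 11573 and 7756 CPM in the knockout ones. The groups did not overlap for Cyp2e1, at a log2 fold change of 0.56 ± 0.19 (SE, edgeR adjusted p = 0.214). Slc1a2, a glutamate transporter made in the same ring of cells as glutamine synthetase and chosen after its values were seen, had 181, 235 and 224 CPM against 272, 298 and 320 CPM (log2 fold change 0.48 ± 0.12, SE, edgeR adjusted p = 0.134). Cyp1a2 was at 0.02 ± 0.20 (SE), with knockout values from 682 to 1260.4 CPM on both sides of the wild type range. Of the 16 genes, 11 were above and 5 below a log2 fold change of 0. The lowest were Avpr1a at -0.52 ± 0.32 and Rhbg at -0.40 ± 0.33 (SE, edgeR adjusted p = 0.488 and 0.618). Cyp2e1, Cyp1a2 and Nr1i3 were highest in knockout replicate 2, as were Tbx3, Axin2 and Rnf43.

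Genes of periportal hepatocytes, at the other end of the lobule, gave 0 calls of 17 tested by edgeR, at a median log2 fold change of 0.08. With an unadjusted edgeR p under 0.05, 1 was higher and 3 lower, against 8.10% and 7.35% of all genes. DESeq2 gave 3 calls, 1 higher and 2 lower, where it called 1.91% and 1.73% of its genes. Asl, an enzyme of the urea cycle, was at 0.52 ± 0.14 and G6pc, of glucose release, at -0.48 ± 0.13 (SE, edgeR adjusted p = 0.144 for both). Gls2, the glutaminase that opposes glutamine synthetase across the lobule, stood at 562 ± 73.4 and 592 ± 47.4 CPM (SD, n = 3 each). The medians of the pericentral and the periportal list thus lay close together, and the difference between the lists was not tested.

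**Figure D5:**
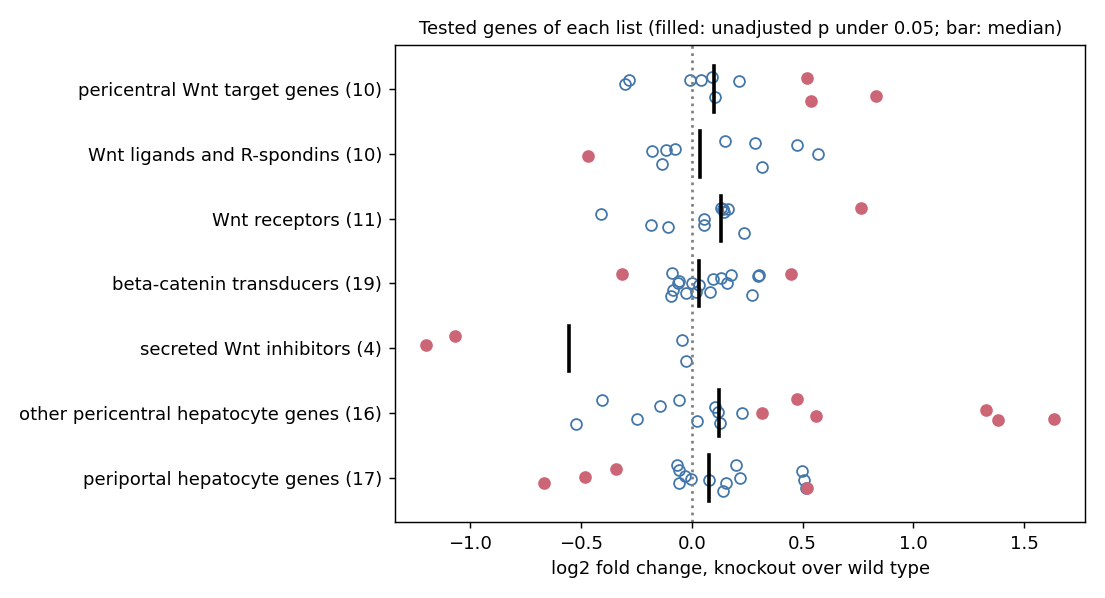
Log2 fold change, knockout over wild type, of each tested gene in 7 lists (number of tested genes in parentheses), filled where the unadjusted p was under 0.05, with the list's median as a bar. Tbx3, Notum and Axin2 are the filled points of the top row, and the medians of the lists other than the secreted inhibitors lie between 0.03 and 0.13.

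Markers of other liver cells were read beside these genes. All 11 Kupffer cell and macrophage markers were below 0 (median log2 fold change -0.69), with a sum from 684 to 771 CPM over the wild type livers and from 361 to 566 CPM over the knockout livers, none at 0. C1qb was at -0.75 ± 0.13 and C1qc at -0.73 ± 0.14 (SE, edgeR adjusted p = 0.0620 and 0.0801). The 5 tested of 6 cholangiocyte markers were all below 0 (median -0.44, sum from 76.0 to 104 CPM over the wild type livers and from 47.6 to 59.4 CPM over the knockout livers), and the untested Cftr was at 0 in knockout replicate 2. Spp1 was at -0.82 ± 0.13 and Krt19 at -0.51 ± 0.41 (SE, edgeR adjusted p = 0.0596 and 0.612). The cholangiocyte sum mainly follows Spp1, whose mean was 85.1 CPM with Igfbp7 intact against 48.1 CPM without it. For Krt19, Krt7, Epcam and Sox9 the groups overlapped, with edgeR adjusted p from 0.612 to 0.917. The lower sum thus does not show a fall in these other markers. The 10 stellate cell markers had a median of -0.15 and a sum from 341 to 433 CPM over the wild type livers and from 280.2 to 426 CPM over the knockout livers, and the 2 with the lowest p were Col1a1 at -0.59 ± 0.36 and Col1a2 at -0.37 ± 0.23 (SE). The 8 hepatocyte markers had a median of 0.03, with Apoa1 at 0.31 ± 0.19 and Fgb at -0.20 ± 0.16 (SE). By edgeR 0 genes of these 4 lists passed over all genes. Only the 11 Kupffer cell and macrophage markers and Spp1 had an unadjusted p under 0.05, all lower, as did 7.35% of all genes. DESeq2 called 9 of the 11 and Spp1 lower, as it did 1.73% of all genes, and edgeR without a filter called 4 of the 11 and Spp1, as it did 0.376% of all genes. Whether the makeup of the tissue has a part in the values of Notum, Tbx3 and Axin2 was not tested.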

How the data were processed

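RNA-seq libraries of 3 wild type and 3 Igfbp7 knockout livers were analysed, grouped by their titles. The values the authors deposited are raw counts of reads for each gene symbol, with a file for every library. Per the submitters' processing notes the tools were CASAVA (1.8.2), TopHat2 (2.0.8b) and HTSeq, and mm9 and hg19 are named as builds without a role. No source used here gives the annotation or the strand setting. The tests and library sizes omit the 5 closing rows that name no gene, of which the row for reads outside genes came to 9.65% to 12.5% of the uniquely placed alignments. The row for alignments that were not unique held 57.3% to 69.8% of the total over all rows. Libraries differed by a chi-square of 23.1 to 42.9 per degree of freedom, so none was a duplicate.

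Counts were tested with edgeR 4.0.16 (R 4.3.3): filterByExpr (minimum count 10), TMM, a quasi-likelihood fit with genotype as the only term, Benjamini-Hochberg over the 12522 genes kept, threshold 0.05. SEs come from the F statistic, 95% intervals from its moderated degrees of freedom, and log2 CPM profiles used a prior count of 2. The test was checked on simulated data. There it called 32.3% of 65 genes changed 1.5-fold, 67.6% of 71 changed 2-fold and 96.6% of 59 changed 4-fold, and 15 unchanged genes. Alternatives were 3 other scalings, 2 other filters, DESeq2 1.42.0, limma-voom (limma 3.58.1), edgeR's robust estimation, a block for the replicate number, thinned counts and each library left out.

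The genes and lists were chosen with earlier results of these data known. Their counts of calls beside the share over all genes are thus descriptions and do not test a list. Besides the 10 genes, Igfbp7 and some genes with a set role, each other list gave up to 4 genes past the threshold, or its 2 with the lowest p. Promoter sequence is from RefSeq (GRCm38.p6) and exon lengths from GENCODE M21, neither the notes' builds.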

Additional observations from a re-analysis of the deposited data

How the results depend on the processing

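The direction of Notum, Tbx3, Axin2, Glul, Rnf43, Znrf3 and Oat was the same in all 16 alternatives. Of the 10 genes, 0 were called by edgeR with all libraries and 1 (Notum) without a filter, 1 (Notum) with robust estimation and 2 (Notum and Tbx3) by DESeq2. Nkd1 turned to -0.0032 with upper-quartile scaling, -0.12 without wild type replicate 3 and -0.07 when knockout replicate 2 was left out, Lgr5 to 0.089 without wild type replicate 1, and Sp5 to 0.0051 without wild type replicate 1, 0.10 without knockout replicate 3 and 0.0084 when knockout replicate 2 was left out. With each library left out Nkd1 ran from -0.12 to 0.18, Lgr5 from -0.58 to 0.089 and Sp5 from -0.14 to 0.10. Calls over all genes were 27, against 133 without a filter, 438 by DESeq2, 68 with robust estimation and 1 with the replicate number as a block, and ran from 3 to 36 with each library left out. The lowest of these, 3, was without knockout replicate 2. Leaving out wild type replicate 1 gave 5, wild type replicate 2 gave 4 and knockout replicate 3 gave 13. DESeq2 called 1 other Wnt pathway gene (Fzd4), 3 other pericentral genes and 3 periportal genes, where edgeR called 0, 1 and 0. With each library left out these 3 counts ran from 0 to 1 each: Fzd4 and the periportal gene Cdh1 were called without knockout replicate 1, and Nr1i3 was not called without wild type replicate 2, nor was it with the replicate block, which gave 0 pericentral calls. The cause of these differences was not tested. Deviations of same-numbered libraries from their group means correlated at -0.08, -0.10 and -0.04 across genes, which are not independent replicates. Libraries of unlike number correlated at -0.05 to 0.12. Since the deviations of a gene sum to 0 within each group, these values cannot decide whether the numbers pair the libraries. The labels do not say so either. Under the block Notum was at 0.54 (adjusted p = 0.131), Tbx3 at 0.88 and Axin2 at 0.53, with 0 of the 10 called. Depth limits Sp5 most, at 25 to 36 counts per library.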

Other observations

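The genes of the circadian clock, which many hepatocyte genes follow over the day, varied between libraries, also within the wild type group. Of 17 tested, 14 were above a log2 fold change of 0, at a median of 0.52. Ciart, listed under its older name Gm129 and a repressor of the clock, had 0.744, 5.28 and 10.2 CPM in wild type and 24.1, 27.8 and 29.9 CPM in knockout replicates 1 to 3 (edgeR adjusted p = 0.121). Clock stood at 68.6 ± 13.6 and 44.9 ± 5.75 CPM (SD, n = 3 each, edgeR adjusted p = 0.124). By edgeR 0 of the 17 passed over all genes. Before adjustment 8 had a p under 0.05 and were higher and 3 lower, against 8.10% and 7.35% of all genes. DESeq2 called 3, Bhlhe40 higher and Clock and Npas2 lower, where it called 1.91% and 1.73% of its genes. Among the pericentral Wnt target genes, Oat, Lgr5 and Nkd1 had their highest level in wild type replicate 1, the library with the highest Arntl. For Nkd1 that value, 8.72 CPM, was nearly matched by the 8.68 CPM of knockout replicate 2. Whether the hour of collection has a part in the values of Notum, Tbx3 and Axin2 was not tested. Without wild type replicate 1 their log2 fold changes were 0.56, 0.79 and 0.65. The clock genes summed to 912 and 1133 CPM in wild type replicates 2 and 3, and to 1331 to 1379 CPM in the knockout libraries. Leaving out wild type replicate 1 thus cannot tell the hour of collection and the genotype apart.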
